A study of Mus musculus with 42 samples.

Results

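The apolipoproteins and lipoprotein assembly genes studied here were 10 genes named by symbol: Apoa1, Apoa2, Apoa4, Apoa5, Apob, Apoc1, Apoc2, Apoc3, Apoe and Mttp. All 10 were listed in each of the 6 tables of liver counts, out of 19758 gene names listed in at least 1 table. All 10 also passed the filter on low counts in every table, and the lowest mean of any of them in a table was 2552 normalized counts. The genes were chosen by name, with earlier results of these data known.

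Whole livers came from 42 male C57BL/6J mice in 6 groups of 7. For each genotype, WT and KO, there was a lean group, an obese group and an obese group given RvE1 (obese+RvE1). KO mice lacked ChemR23, the receptor for resolvin E1 (RvE1) that the gene Cmklr1 encodes, after CRISPR/Cas9 editing of the whole animal, and WT mice were littermates. Lean mice ate a diet with 10% of energy from fat and obese mice one with 60%, from 6 weeks of age for 15 weeks. RvE1, a lipid made from eicosapentaenoic acid, was injected at 300 ng into the abdominal cavity on 4 days, and every other mouse, lean mice included, had ethanol and PBS vehicle. The mice were fasted before the livers were taken. Each table held 14 mice of 2 groups normalized together by the authors, so groups were compared only within a table. Names of mice begin with a number whose meaning the labels do not give. No number was shared between lean KO and lean WT mice, or between lean and obese mice of either genotype. Only obese KO mice with vehicle and with RvE1 had a number in common. In the other comparisons, differences between numbers and between groups cannot be fully told apart.

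Lipoproteins carry triglyceride and cholesterol through blood. Hepatocytes build very low density lipoprotein (VLDL) on the protein of Apob, and the protein of Mttp loads lipid onto it. The proteins of Apoa1 and Apoa2 form high density lipoprotein (HDL). The exchangeable proteins of Apoc1, Apoc2, Apoc3 and Apoa5 tune lipolysis by lipoprotein lipase, which the product of Apoc2 activates and that of Apoc3 holds back. ApoE binds the receptors that clear remnants, and apoA-IV, the product of Apoa4, travels on chylomicrons, VLDL and HDL and is made in intestine and, in mice, in liver.

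The libraries held 15997036 to 43851132 reads on listed genes, with a median of 24301003. The 10 genes together took 4.54% to 7.30% of them (median 5.78%). Cmklr1, the targeted gene, had 9.72 to 22.6 normalized counts in lean KO mice against 40.8 to 114 in lean WT mice, so the groups did not overlap. In lean mice of both genotypes all 10 hepatocyte markers were listed, none at 0, and their summed level was 1187400 to 1844900 normalized counts. In whole liver, fewer cells of a type and less RNA per cell cannot be told apart.

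In the mm10 genome 7 of the genes lay in 2 clusters. Apoa1 (chr9:46228580-46230466, plus strand), Apoc3 (chr9:46232933-46235636, minus strand), Apoa4 (chr9:46240696-46243459, plus strand) and Apoa5 (chr9:46268633-46271919, plus strand) stood within 43340 bases of chromosome 9. Apoc2 (chr7:19671579-19677941), Apoc1 (chr7:19689481-19692660) and Apoe (chr7:19696109-19699188), all on the minus strand, stood within 27610 bases of chromosome 7. Apoa2 was on chromosome 1 (171225054 to 171226379, plus strand), Apob on chromosome 12 (7977648 to 8016835, plus strand) and Mttp on chromosome 3 (138089854 to 138144968, minus strand). Apoa4 shared 634 and 632 exonic bases with 2 genes of the opposite strand, Gm47528 and Gm10680, and Apoa5 shared 524 with Gm47544. Apoc2 shared 646 exonic bases with the same-strand gene Gm44805, and Mttp 457 with the opposite-strand gene Trmt10a and 132 with Gm43691. The strand setting of the counting is not given in the sources used here, so reads in those stretches are uncertain.

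Sequence just upstream of Apoa4 and Apoa5, the chromosome 9 genes that passed a test in these livers, is given with that of their neighbour Apoa1 for comparison. The bases are from RefSeq windows on GRCm38.p6, plus strand, cut where the RefSeq or GENCODE transcript first begins. Capitals mark matches on either strand to 4 motifs chosen after the windows had been read. These were the core of a TATA box (TATAAA), an E-box (CACGTG), and half-sites of the kind that nuclear receptors bind, spelled AGTTCA and AGGTCA.
Apoa1, chr9:46228380-46228579: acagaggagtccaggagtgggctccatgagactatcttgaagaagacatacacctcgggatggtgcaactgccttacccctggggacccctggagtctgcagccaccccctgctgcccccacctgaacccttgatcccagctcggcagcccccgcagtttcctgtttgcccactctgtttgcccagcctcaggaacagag
Apoa4, chr9:46240594-46240695: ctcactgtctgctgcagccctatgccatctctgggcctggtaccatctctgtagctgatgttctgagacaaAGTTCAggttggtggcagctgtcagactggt
Apoa5, chr9:46268358-46268607: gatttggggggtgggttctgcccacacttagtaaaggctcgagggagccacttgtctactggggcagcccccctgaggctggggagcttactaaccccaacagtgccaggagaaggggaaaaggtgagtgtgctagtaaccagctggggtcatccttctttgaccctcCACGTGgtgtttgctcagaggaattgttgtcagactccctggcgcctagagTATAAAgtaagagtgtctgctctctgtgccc
The 250 bases of Apoa5 held 1 TATAAA, which 12.4% of 32851 windows held in the same stretch, and 1 CACGTG (6.02%). The 102 bases of Apoa4 held 1 AGTTCA, which 5.44% of windows of that length held. None of these letters were in the 200 bases of Apoa1, where shares ran from 4.34% for CACGTG to 11.4% for AGGTCA. The Apoa1 and Apoa4 windows end at the GENCODE start, short of the RefSeq starts at 46228630 and 46240844. That of Apoa5 ends at its RefSeq start, 46268608. Bases just before the RefSeq starts of Apoa1 and Apoa4 were not searched, so these matches do not compare the genes. No matches overlapped. Windows for Apoc1 and Apoc3 were not used here.

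In lean WT livers the order of these genes by normalized count per kilobase of exon was set by Apoe and Apoa1. Apoe had a mean of 227752 ± 27116 per kilobase (SD, n = 7) and Apoa1 216034 ± 26992, and the ranges of these genes overlapped. Apoa2, the smaller HDL protein gene, followed at 91436 ± 13836 per kilobase, below every Apoa1 value. Apoc1 (35686 ± 7385), Apoa4 (30577 ± 20622), Apoa5 (22858 ± 2484), Apob (19784 ± 1845) and Apoc3 (16539 ± 1856) came next, each overlapping its neighbour in this order. Apoc2 had 3226 ± 567 per kilobase, and Mttp was lowest at 1384 ± 195, and neither overlapped the gene before it. The spread of Apoa4 was the widest of the 10 in lean WT mice, with a coefficient of variation of 67.4% against 9.33% for Apob.

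**Figure D1:**
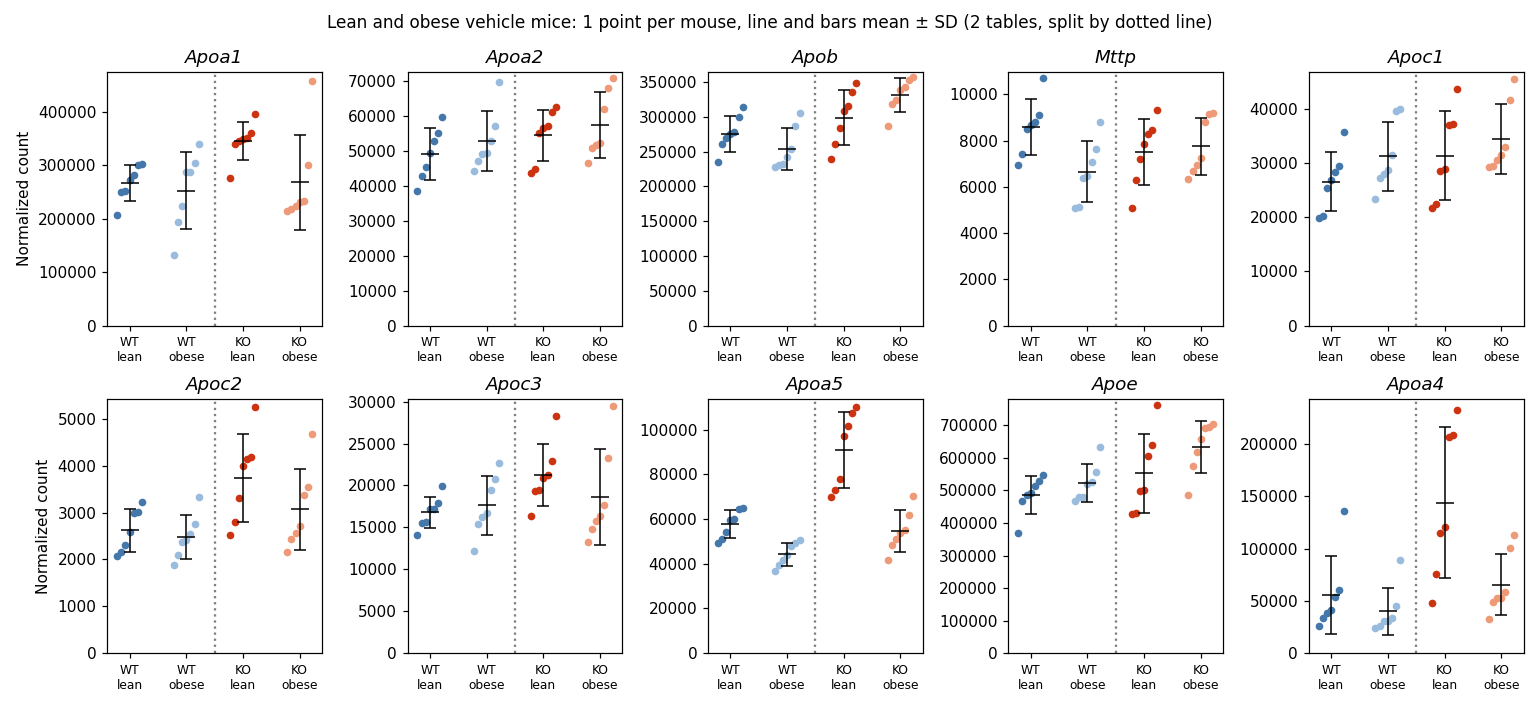
Normalized counts (vertical axes, from 0) of the 10 genes in 4 vehicle groups, with 1 point per mouse, the mean as a line and the SD as bars; the dotted line splits tables that were normalized separately. Apoa5 in 6 of 7 lean KO mice lies above every obese KO mouse, and Apoa4 runs from 47944 to 232291 in lean KO mice and from 25899 to 136045 in lean WT mice.

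Does the high fat diet change this group of genes in WT livers? None of the 10 passed at an adjusted p under 0.1 (limma across 14012 genes, Benjamini-Hochberg), where 6.27% of all genes passed. At an unadjusted p under 0.05 were 2 of the 10, Apoa5 and Mttp, and 18.2% of all genes. Of the 10 log2 fold changes 4 were above 0, and their median was -0.10 against 0.0030 over all genes.

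Apoa5, whose protein promotes triglyceride hydrolysis in plasma, ran from 49277 to 65120 normalized counts in lean WT mice (median 59438) and from 36717 to 50425 in obese WT mice (median 43964). Of 7 lean mice, 6 were above every obese mouse. The log2 fold change for obese against lean was -0.39 (SE 0.13, limma adjusted p = 0.126), on log2 of the normalized count + 1 as for every fold change here. With DESeq2 on the recovered reads the adjusted p was 0.00573, and with edgeR 0.0917. Limma gave 0.0692 with library quality weights and 0.0945 after a length and GC correction. These 4 of 24 alternative fits passed, and the highest adjusted p over the 24 was 0.294.

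Mttp, the lipid transfer protein of VLDL assembly, ran from 6939 to 10684 normalized counts in lean WT mice (median 8657) and from 5082 to 8778 in obese WT mice (median 6487). The groups overlapped, with 3 lean mice above all obese mice and 4 obese mice below all lean mice. The log2 fold change was -0.38 (SE 0.14, limma adjusted p = 0.140). It passed in 3 of 24 alternative fits. These were DESeq2 on the recovered reads (adjusted p = 0.0913), limma with library quality weights (0.0706) and limma without WT obese replicate 1 (0.0565). The highest adjusted p over the 24 fits was 0.423.

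The other 8 genes did not pass for diet in WT mice either, with wide intervals. Apob had a median of 274777 normalized counts in lean and 242602 in obese WT mice, with a log2 fold change of -0.12 and a 95% interval from -0.52 to 0.28. Apoa1 had medians of 272808 and 286706, and its interval ran from -0.63 to 0.37. For Apoa2, the interval was -0.21 to 0.42. Apoe had medians of 493428 and 520373 normalized counts and an interval from -0.38 to 0.59. Apoa4 had medians of 40775 and 30861 and a log2 fold change of -0.41 (SE 0.34, limma adjusted p = 0.560). Apoc1 (log2 fold change 0.23), Apoc3 (0.05) and Apoc2 (-0.08) did not pass either.

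In KO livers, 2 chromosome 9 genes, Apoa5 and Apoa4, were lower with the high fat diet. These 2 of 10 passed at an adjusted p under 0.1 (limma across 14213 genes), where 24.1% of all genes passed. Both were lower in obese KO mice, and both also exceeded a fold change of 1.5, as did 10.4% of all genes.

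Apoa5 ran from 69766 to 109979 normalized counts in lean KO mice (median 96935) and from 41621 to 70490 in obese KO mice (median 53711). Of 7 lean mice, 6 were above every obese mouse here too. The log2 fold change for obese against lean was -0.73 (SE 0.17, limma adjusted p = 0.0132), with a 95% interval from -1.09 to -0.38. The call was kept without any single mouse of the 14, with log2 fold changes from -0.80 to -0.67. With the number in the mouse name as a random block the adjusted p was 0.0669.

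Apoa4 ran from 47944 to 232291 normalized counts in lean KO mice (median 120785) and from 32669 to 112590 in obese KO mice (median 52674). Of 7 lean mice, 5 were above all obese mice, and 1 lean mouse, replicate 5, was below the obese median. The log2 fold change was -1.06 (SE 0.36, limma adjusted p = 0.0568), with a 95% interval from -1.82 to -0.30. It no longer passed with the number in the mouse name as a random block (adjusted p = 0.145), after scaling to equal totals (0.123), or without KO lean replicate 2, 4 or 7 or KO obese replicate 6 or 7, each in turn (0.104 to 0.112).

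Apoa1, the main HDL protein gene, did not pass in KO mice. Lean KO mice ran from 277094 to 396643 normalized counts (median 349967) and obese KO mice from 214304 to 458301 (median 231566). Of 7 obese mice, 5 were below every lean mouse, while KO obese replicate 4 was above all of them. The log2 fold change was -0.41 (SE 0.23, limma adjusted p = 0.227), and without that replicate it was -0.55 (adjusted p = 0.0723). With library quality weights it was -0.58 (limma adjusted p = 0.0322).

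The other 7 genes did not pass for diet in KO mice. Apob had medians of 308406 normalized counts in lean and 338109 in obese KO mice, with a 95% interval of the log2 fold change from -0.26 to 0.58. Apoe, with medians of 501706 and 659031, had an interval from -0.32 to 0.76. Mttp had medians of 7836 and 7245 and an interval from -0.24 to 0.36. Apoc2 (-0.29), Apoc3 (-0.22), Apoc1 (0.16) and Apoa2 (0.08) complete the set of log2 fold changes. After a correction for transcript length and GC content, Apoc1 passed (0.41, limma adjusted p = 0.0906).

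The test of the difference between genotypes in the diet effect found none of the 10 at an adjusted p under 0.1 (limma across 13924 genes, 28 mice), where 0.00718% of all genes passed. Mttp had the smallest unadjusted p, 0.0318, with a log2 difference of 0.44 (KO effect less WT effect, SE 0.19, limma adjusted p = 0.225). The differences for Apoa4 (-0.65, SE 0.52) and Apoa5 (-0.35, SE 0.19) did not pass. The diet effects on Apoa4 and Apoa5 are thus not shown to differ between genotypes.

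**Figure D2:**
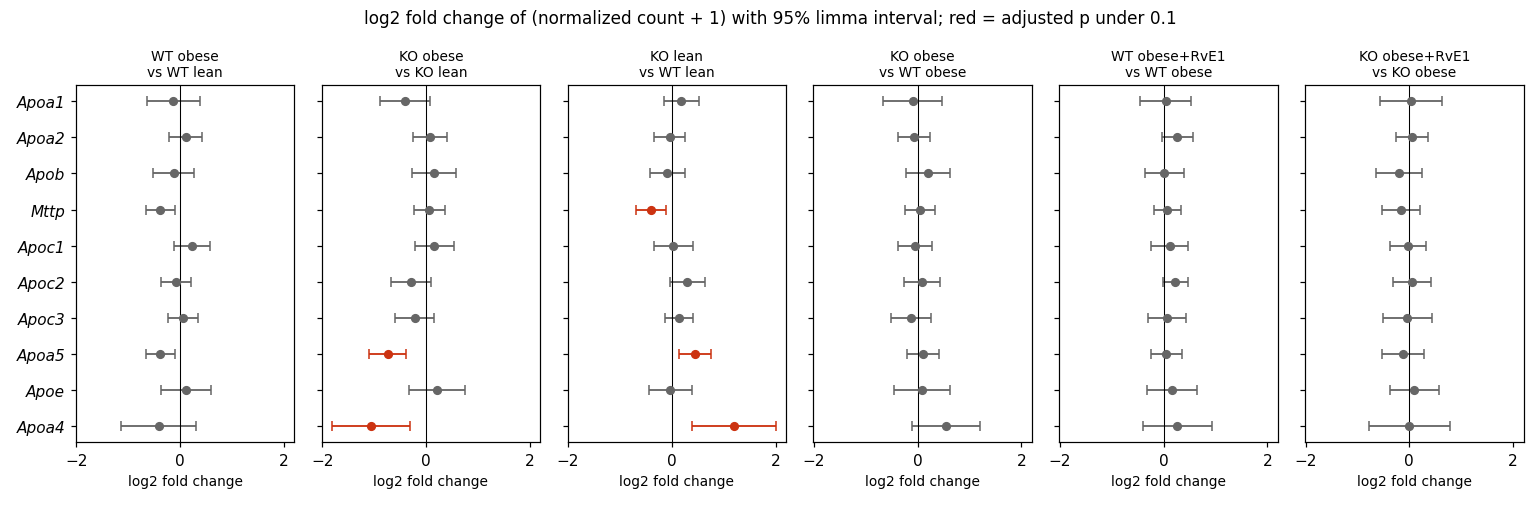
Log2 fold change (horizontal axes) of the 10 genes in 6 comparisons, with 95% intervals from limma; red points passed at an adjusted p under 0.1. Red marks 5 points, 2 for diet in KO mice and 3 for genotype in lean mice, and each interval in the 3 right-hand panels covers 0.

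Between lean genotypes, Apoa4 and Apoa5 were higher and Mttp lower in KO livers. These 3 of 10 passed at an adjusted p under 0.1 (limma across 13031 genes), where 16.3% of all genes passed. Only Apoa4 also exceeded a fold change of 1.5, as did 6.65% of all genes. The 2 comparisons that gave calls share the lean KO mice, so the higher Apoa4 and Apoa5 here and their lower values with obesity rest in part on the same 7 livers.

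Apoa4 ran from 26863 to 141481 normalized counts in lean WT mice (median 42499) and from 43678 to 210632 in lean KO mice (median 109623). Of 7 KO mice, 3 were above every WT mouse, and the groups overlapped through WT lean replicate 6, the highest of its group, and KO lean replicate 5, the lowest of its own. The fold change was 2.29 (log2 1.19, SE 0.39, limma adjusted p = 0.0668). It did not pass without WT lean replicate 2 or 5 or KO lean replicate 2, 4, 6 or 7, each in turn (adjusted p = 0.113 to 0.140).

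Apoa5 ran from 50920 to 67732 normalized counts in lean WT mice (median 61761) and from 63558 to 99815 in lean KO mice (median 88028). Of 7 KO mice, 5 were above every WT mouse. The fold change was 1.36 (log2 0.45, SE 0.15, limma adjusted p = 0.0677). It did not pass without WT lean replicate 2, 5 or 7 or KO lean replicate 2, 3, 4 or 6, each in turn (adjusted p = 0.105 to 0.139), nor after scaling to equal totals (0.155).

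Mttp ran from 7217 to 11111 normalized counts in lean WT mice (median 8946) and from 4618 to 8436 in lean KO mice (median 7138). Of 7 WT mice, 5 were above every KO mouse, and 4 KO mice below every WT mouse. The fold change was 0.755 (log2 -0.40, SE 0.14, limma adjusted p = 0.0747). It did not pass without WT lean replicate 2, 3, 5, 6 or 7 or KO lean replicate 2, 3, 4 or 6, each in turn (adjusted p = 0.105 to 0.142).

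With the number in the mouse name as a random block none of the 3 passed, with log2 fold changes of 1.23 for Apoa4 (adjusted p = 0.160), 0.44 for Apoa5 (0.178) and -0.38 for Mttp (0.188). That fit passed 3 of 13031 genes in all. After a correction for transcript length and GC content the log2 fold changes were 1.03 for Apoa4 (adjusted p = 0.1007), 0.32 for Apoa5 (0.135) and -0.33 for Mttp (0.1005), just above 0.1 for Apoa4 and Mttp. The lean WT mice carried 4 numbers and the lean KO mice 3 others.

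**Figure D3:**
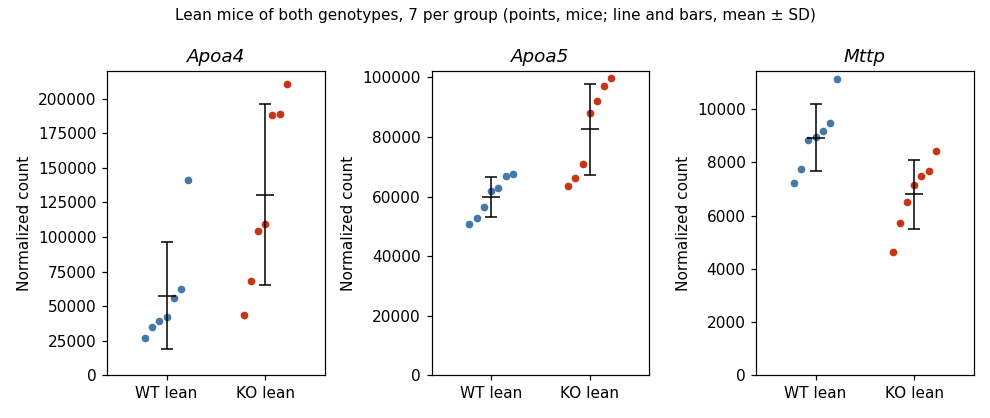
Normalized counts (vertical axes, from 0) of Apoa4, Apoa5 and Mttp in 7 lean WT and 7 lean KO mice, with 1 point per mouse and the mean ± SD. Apoa4 and Apoa5 sit higher in KO mice (medians 109623 and 88028 against 42499 and 61761) and Mttp sits lower (7138 against 8946), and in each panel the groups overlap.

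The remaining 7 genes did not pass between lean genotypes. Apoc2, the activator of lipoprotein lipase, ran from 2148 to 3365 normalized counts in WT and from 2296 to 4765 in KO mice, with a log2 fold change of 0.30 (limma adjusted p = 0.241). Without KO lean replicate 5 its adjusted p was 0.0836. Apob had medians of 286395 in WT and 279838 in KO mice, with a 95% interval of the log2 fold change from -0.42 to 0.25. Apoa1 had medians of 282970 and 317904 and an interval from -0.16 to 0.52. Apoc3 (0.13), Apoc1 (0.03), Apoe (-0.03) and Apoa2 (-0.04) had log2 fold changes near 0.

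Other measures moved with these lean genotype groups. Of 10 Kupffer cell and macrophage markers tested, 8 were higher in lean KO mice, where 16.3% of all genes passed, but none with the random block (adjusted p = 0.112 to 0.160). The summed level was 9713 to 20943 normalized counts against 4227 to 8894 in WT mice. The same list had 7 of 11 lower in obese than in lean KO mice, where 24.1% of all genes passed. All 7 also passed with the block, where 1057 of 14213 genes passed. Of 3 enterocyte markers tested, Fabp2 and Treh were higher and Anpep was lower (adjusted p = 0.146 to 0.217 with the block), while Alpi, Lct, Sis, Muc13 and Vil1 were not listed in that table; their summed level was 4360 to 11141 normalized counts in lean KO and 3715 to 5500 in lean WT mice. Over 12916 genes the log2 fold change fell with transcript length (Spearman's rho -0.335, across genes, which are not independent replicates). Its median was 0.14 in the shortest 25% of genes, up to 2718 bases, and -0.15 in the longest, from 6767 bases. All of the 10 but Apob and Mttp lie among the shortest, and of those 8 only Apoa4 and Apoa5 passed; Apob has 13934 bases and Mttp 6206. For diet in KO mice rho was 0.297. The part of these in the results was not tested.

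Between obese genotypes none of the 10 passed (limma across 14162 genes), where 0.0141% of all genes passed and none of the 10 had an unadjusted p under 0.05. Apoa4 ran from 26525 to 97733 normalized counts in WT mice (median 34081) and from 31498 to 109641 in KO mice (median 50423). The groups overlapped, with 2 KO mice above all WT mice. Its log2 fold change was 0.55, with a 95% interval from -0.10 to 1.21 (limma adjusted p = 1.00). Apoa5 had medians of 48651 in WT and 51670 in KO mice and an interval from -0.20 to 0.41. Mttp had medians of 7178 and 6985 and an interval from -0.25 to 0.33. The other 7 log2 fold changes ran from -0.13 for Apoc3 to 0.20 for Apob.

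RvE1 against vehicle in obese WT mice moved none of the 10 past the test (limma across 13085 genes), where 0% of all genes passed. At an unadjusted p under 0.05, 0 of the 10 and 795 of all genes (6.08%) passed. On the recovered reads edgeR and DESeq2 also passed none of the 10, with 1 and 25 of all 13085 genes passing. All 10 log2 fold changes were above 0, as were 51.2% of all genes, but none exceeded 0.27. Those of Apoa1, Apob, Apoa5 and Apoc3 changed sign in some alternatives, and the mean of Apoa1 was lower with RvE1 (294631 against 296767). The closest to passing was Apoc2, which ran from 2213 to 3897 normalized counts with vehicle (median 2845) and from 2992 to 3964 with RvE1 (median 3295). Of 7 vehicle mice, 5 were below every RvE1 mouse. Its log2 fold change was 0.23, with an interval from -0.01 to 0.47 (limma adjusted p = 0.850). Apoa2 ran from 52300 to 81723 with vehicle (median 57855) and from 63737 to 88209 with RvE1 (median 73213). Again 5 vehicle mice were below every RvE1 mouse, and the log2 fold change was 0.27 (interval -0.03 to 0.57, limma adjusted p = 0.874).

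For Apob, Apoa1 and Mttp with RvE1 in WT mice the intervals were centred near 0. Apob had medians of 286387 with vehicle and 303593 with RvE1, and an interval from -0.36 to 0.39. Apoa1 had medians of 336921 and 290800 and an interval from -0.45 to 0.53. Mttp, the VLDL loading gene, had an interval from -0.19 to 0.33.

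RvE1 in obese KO mice moved none of the 10 past the test either (limma across 14207 genes), where 0% of all genes passed. At an unadjusted p under 0.05, 0 of the 10 and 1179 of all genes (8.30%) passed. On the recovered reads edgeR and DESeq2 passed none of the 10, with 0 and 17 of all 14207 genes passing. The 10 log2 fold changes, 5 of them above 0, ran from -0.20 for Apob to 0.10 for Apoe. Apob ran from 289064 to 359059 normalized counts with vehicle (median 341812) and from 205655 to 411545 with RvE1 (median 295657). RvE1-treated KO mice were more scattered, with a coefficient of variation of 24.6% against 7.16%, and 2 of them were below and 1 above all vehicle mice. The interval of its log2 fold change was -0.64 to 0.25. Apoa4 had medians of 52879 and 55935 normalized counts and an interval from -0.78 to 0.79. The difference between genotypes in the RvE1 effect passed for none of the 10 (limma across 13059 genes), where 0% of all genes passed, and the 10 log2 differences (KO effect less WT effect) ran from -0.26 for Apoa4 to -0.02 for Apoa1.

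Within groups, several of the apolipoprotein genes varied together from mouse to mouse. The values here are Pearson's r of log2 deviations from the group mean, given as descriptions over 28 vehicle mice and again over 14 RvE1 mice, and points share libraries and depth. Of 45 pairs, 9 had r above 0.5 in vehicle mice, and 8 of those were also above 0.5 in RvE1 mice. Apoa1 with Apoc3, its neighbour on chromosome 9, had r = 0.791 and 0.864. Apoc1 with Apoc3, on different chromosomes, had 0.784 and 0.945, and Apoa2 with Apoc1 had 0.790 and 0.904. Apoc1 with its chromosome 7 neighbour Apoe had 0.774 and 0.597, but Apoc1 with Apoc2 in the same cluster had -0.07 and -0.0035.

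Apoa4 did not follow its neighbours. With Apoa1 it had r = -0.25 in vehicle and -0.74 in RvE1 mice, with Apoc3 -0.26 and -0.78, and with Apoc2 0.724 and 0.354. Low Apoa1 met high Apoa4 in WT obese replicate 7 (131713 and 89127 normalized counts, the lowest Apoa1 and the highest Apoa4 of its group) and in KO obese+RvE1 replicates 1 (150133 and 141623) and 7 (152070 and 135856). The 2 RvE1-treated mice held the lowest 2 Apoa1 and the highest 2 Apoa4 values of their group. Among WT obese+RvE1 mice, the highest Apoa4 deviation (1.24, replicate 4) came with -0.01 for Apoa1, and the lowest (-0.83, replicate 3) with 0.24. Apob and Mttp, the pair that assembles VLDL, had 0.390 and 0.892. Their coefficients of variation were 24.6% and 27.7% in KO obese+RvE1 mice, against 8.81% and 10.3% in WT obese+RvE1 mice. Each RvE1 value of r pools the WT and KO mice, and r was not taken within either group.

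**Figure D4:**
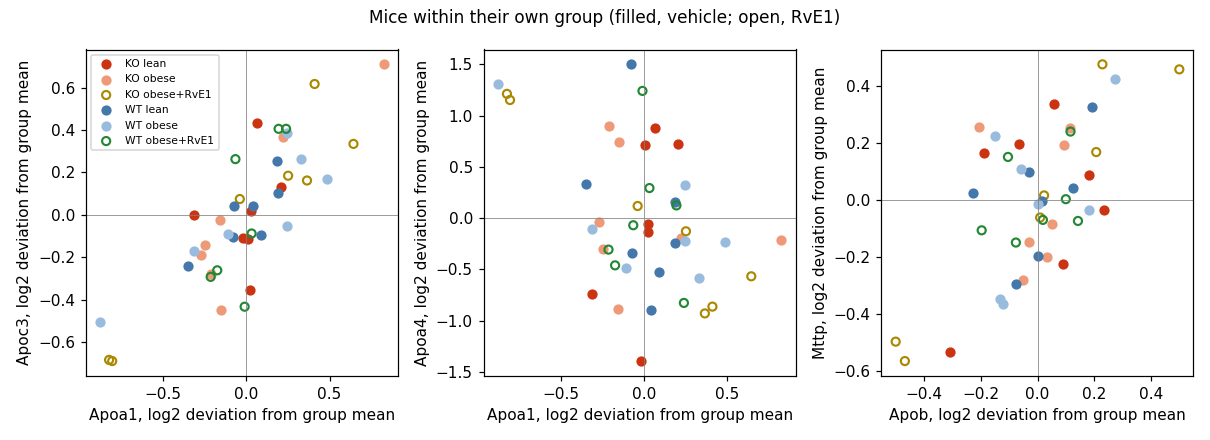
Log2 deviation from the group mean for 3 pairs of genes, 1 point per mouse, filled for 28 vehicle mice and open for 14 RvE1 mice, coloured by group. Apoc3 rises with Apoa1 (r = 0.791 and 0.864) and Mttp with Apob (0.390 and 0.892). For Apoa4 with Apoa1 r is -0.25 and -0.74. The RvE1 values pool WT and KO mice, and r was not taken within either group.

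A library's trend of deviations on transcript length moved with most of these genes. For each mouse the slope of all genes' deviations on log2 length was set against each gene's deviation. The 2 longest, Apob (13934 exonic bases) and Mttp (6206), had r = 0.522 and 0.531 with that slope in vehicle mice and 0.896 and 0.914 in RvE1 mice. Apoc3 (1014 bases) had -0.70 and -0.91, and Apoa5 (2522 bases) -0.64 and -0.91. Apoa4 (1815 bases) had -0.03 in vehicle mice and 0.720 over the RvE1 mice of both genotypes pooled. KO obese+RvE1 replicates 1 and 7, the mice with low Apoa1 and high Apoa4, had the steepest slopes towards long genes of all 42. How far the RvE1 values rest on these mice was not tested. The part of this trend in the correlations was not tested.

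**Figure D5:**
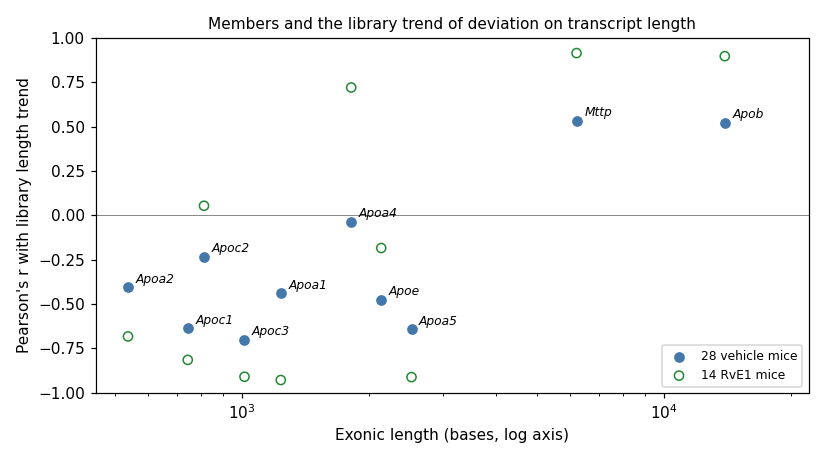
Pearson's r between each gene's deviation and the library length slope (vertical axis) against exonic length in bases (horizontal axis, logarithmic), filled for 28 vehicle mice and open for 14 RvE1 mice. Apob and Mttp lie above 0 in both sets, and Apoa1, Apoa2, Apoa5, Apoc1, Apoc3 and Apoe lie below 0 in both.

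The genes most like each member, by the same within-group r over 28 vehicle mice among 10719 others, differed by member. In 14 RvE1 mice the r of these 30 pairs ran from 0.426 to 0.983 (median 0.821). No background of other genes' r with the members was taken in those mice, which also share the length trend above. For Apoa1 the first was Igfbp2 (r = 0.876), then Ahsg (0.839) and Dnaja3 (0.833). For Apoa4 they were Atp9a (0.870), Cgref1 (0.865) and S100a10 (0.853). For Apoc3 they were Aup1 (0.911), Aamp (0.902) and Pole4 (0.902). For Apoc1 they were Aes (0.923), Vkorc1 (0.916) and Tmem59 (0.915), and for Apoe Sbds (0.893), Tmbim6 (0.860) and Akr7a5 (0.857). For Apoa2 they were Dad1 (0.853), Apoh (0.846) and 2810428I15Rik (0.842), and for Apoc2 Abhd4 (0.815), Them6 (0.806) and Slc48a1 (0.786). Apoa5 had the lowest match of the shorter genes, Pink1 (0.792), before Cdc34 (0.787) and Rab1b (0.777). Apob was nearest Usp9x (0.778), Kif1b (0.750) and Vps13b (0.735), and Mttp nearest Zfp592 (0.854), Atp6v0a1 (0.847) and Dapk1 (0.828).

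Of 6 lists of other genes of the lipoprotein pathway, 9 of 89 genes tested passed for diet in WT mice (6.27% of all genes), 29 of 89 for diet in KO mice (24.1%) and 12 of 88 between lean genotypes (16.3%). With the number in the mouse name as a random block, 4, 10 and 0 of those calls were kept. Over all genes that fit passed 279 of 14012, 1057 of 14213 and 3 of 13031. Of 12 other apolipoprotein genes tested in WT mice, 1 was higher in obese mice and 1 lower. Apom, whose protein carries sphingosine 1-phosphate on HDL, fell from 1870 ± 202 to 1001 ± 233 normalized counts (SD, n = 7 each, log2 fold change -0.93, limma adjusted p = 0.00153). Saa4, an HDL protein, rose from 9328 ± 5256 to 25441 ± 10316 (1.55, 0.0151). In KO mice 1 was higher and 2 lower: Saa4 rose (1.80) and Apom fell (-0.96), and Apoc4, which lies beside Apoc2, fell from 16714 ± 4269 to 10843 ± 2666 (-0.61, limma adjusted p = 0.0365, and 0.148 with the block). Apoc4 was also the single gene of 11 tested that was higher in lean KO than in lean WT mice (log2 fold change 0.53, limma adjusted p = 0.0645, and 0.172 with the block).

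Of 24 further genes of VLDL assembly and secretion, 1 was higher and 2 lower in obese WT mice, where 6.27% of all genes passed. In obese KO mice 3 were higher and 6 lower, where 24.1% of all genes passed. With the block 1 of the 3 calls in WT mice (Plin2) and 3 of the 9 in KO mice (Ces1g, Mia2 and Plin2) were kept, and the highest adjusted p were 0.167 and 0.206. In both genotypes Plin2, a lipid droplet coat protein, was lower (log2 fold change -1.02 in WT, -0.95 in KO) and Ces1g, a carboxylesterase, was higher (0.76 and 1.33). Tm6sf2, a gene of VLDL lipidation, was lower in obese WT mice (-0.61, limma adjusted p = 0.0304). Mia2, which helps bulky cargo leave the endoplasmic reticulum, was higher in obese KO mice (0.79) and Sar1a, a coat GTPase of that step, was lower (-0.39). Between lean genotypes, where 16.3% of all genes passed, 2 were higher in KO mice (Smlr1, 0.48, and Aadac, 0.64) and 1 lower (Mia3, -0.61). With the block their adjusted p ran from 0.146 to 0.220.

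Of 9 genes of HDL assembly and remodelling, 1 passed for diet in WT mice and 2 in KO mice, where 6.27% and 24.1% of all genes passed. In WT mice Pltp, the phospholipid transfer protein, fell from 379 ± 172 to 129 ± 61.4 normalized counts (log2 fold change -1.55, limma adjusted p = 0.0171, and 0.0866 with the block). In KO mice Pltp (-0.93) and Scarb1, the HDL receptor (-0.26), were lower, but not with the block (adjusted p = 0.118 to 0.231). Of 7 genes of lipoprotein lipase control, none passed in WT mice. In obese KO mice, where 24.1% of all genes passed, Angptl4 (-0.81), a lipase inhibitor, and Angptl6 (-0.39) were lower. Neither passed with the block (adjusted p = 0.173 to 0.262).

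Of 13 receptor and clearance genes, 2 passed in obese WT mice, where 6.27% of all genes passed. Vldlr was higher (log2 fold change 1.19) and Sdc1, the syndecan that binds remnants, lower (-0.45). Neither passed with the block (adjusted p = 0.129 to 0.240). In obese KO mice, where 24.1% of all genes passed, 2 were higher and 3 lower. Among them Sdc1 (-0.97) and Lsr (-0.45) were lower and Lrp1, a remnant receptor, was higher (0.59). With the block 2 of these 5 calls were kept, Sdc1 among them, and the highest adjusted p was 0.215. Between lean genotypes, where 16.3% of all genes passed, 2 were higher and 2 lower in KO mice. Among them Sdc1 (0.45) was higher and Lrp6 (-0.82) and Lrp1 (-0.74) were lower. With the block the adjusted p of this list's calls ran from 0.150 to 0.182.

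Of 24 transcriptional regulators, Srebf1 was the 1 that passed in obese WT mice (log2 fold change 0.96, limma adjusted p = 0.0628, and 0.161 with the block), where 6.27% of all genes passed. In obese KO mice 5 were higher and 3 lower, where 24.1% of all genes passed. With the block 3 of these calls were kept (Cebpa and Mlxipl among them), and the highest adjusted p was 0.217. Among them, Cebpa fell from 53434 ± 13269 to 29842 ± 2804 normalized counts (-0.81, limma adjusted p = 0.00640), and Creb3l3, an activator of Apoa4 and Apoa5, was lower (-0.41). Mlxipl was higher (0.55) and Nr1h2 lower (-0.35). Between lean genotypes, where 16.3% of all genes passed, Cebpa (0.69) and Creb3l3 (0.28) were higher in KO mice and Rora (-0.50) and Mlxipl (-0.48) lower. With the block the adjusted p of these calls ran from 0.146 to 0.212. None of the genes of these 6 lists passed between obese genotypes, with RvE1 or in either test of a difference between genotypes.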

How the data were processed

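Whole liver RNA of 42 mice was sequenced from stranded Illumina libraries, which the labels call both total RNA-seq and polyA RNA. Per the labels and the study's methods, reads were aligned to mm10 with Bowtie2, which does not splice reads, counted per gene with featureCounts where both ends mapped, and normalized with DESeq2. For their versions, the annotation and the strand setting, nothing is stated in the labels or methods. The deposited values are a signal, namely gene counts divided by size factors per table of 14 libraries. The authors' fold changes and p-values were not used, and 0 columns of other samples were found. Whole reads were recovered for 100% of values (tolerance 0.1).

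Genes with a mean of at least 5 normalized counts were tested with limma 3.58.1 (R 4.3.3) on log2(normalized count + 1), with a trended variance and Benjamini-Hochberg adjustment over all genes of the table. A gene passed at an adjusted p under 0.1. Differences between genotypes used 28 libraries. Counting tests used edgeR 4.0.16 and DESeq2 1.42.0. Fits were tested on simulated data. Of 19758 names, 98.5% matched GENCODE vM21 or RefSeq, which gave coordinates and lengths. All members were named everywhere; of each pathway list, up to 4 genes past the test with the smallest adjusted p; and the 3 genes most like each member, among genes with a mean of at least 50. Some genes of these lists are not reported here. The members and lists were chosen with earlier results of these data known. Labels do not say how mice were housed or whether libraries were made in batches. Depth limits the members little, since the lowest mean in a table was 2552 normalized counts.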

Additional observations from a re-analysis of the deposited data

Results flagged for a closer look

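Of 60 sets of 7 mice (10 genes in 6 groups), 4 held a mouse whose gap to the next was large for the range of its group by Dixon's test, where chance flags about 5% of sets. For Apoa4, WT lean replicate 6 had 136045 normalized counts against 60607 for the next mouse, a gap of 0.685 of the range. For Apoa4, WT obese replicate 7 had 89127 against 45126, a gap of 0.677. For Apoa4, WT obese+RvE1 replicate 4 had 120643 against 62560, a gap of 0.632. For Apoa1, KO obese replicate 4 had 458301 against 301265, a gap of 0.644. In each case the mouse was the highest of its group. Without WT lean replicate 6, Apoa4 still passed between lean genotypes (log2 fold change 1.44, limma adjusted p = 0.0434), and without KO obese replicate 4, Apoa1 passed for diet in KO mice (-0.55, adjusted p = 0.0723). No difference between genotypes in a diet or RvE1 effect passed for these genes.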

How the results depend on the processing

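The number of the 10 genes that passed changed by over 1.5 times in these cases. For diet in WT mice, 0 became 1 after length and GC correction and with edgeR, and 2 with library weights and with DESeq2. For diet in KO mice, 2 became 1 after scaling to equal totals, with the number in the mouse name as a block, and at an adjusted p under 0.05. Between lean genotypes, 3 became 0 after length and GC correction, with the block and at 0.05, and 1 with a fold change above 1.5. Leaving out each mouse in turn gave 0 to 1 for diet in WT, 1 to 3 for diet in KO, 0 to 4 between lean genotypes and 0 in the other 3 comparisons. The cause was not tested. The 5 called values kept their sign in every alternative, and so did 39 of 75 values that had not passed; the other 36, at most 0.27 in size on the log2 scale, changed sign at least once.

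Over all genes, 878 passed for diet in WT mice, against 510 at equal totals, 279 with the block, 1605 with weights and 1367 with DESeq2. For diet in KO mice, 3422 passed, against 1057 with the block and 5737 with weights, and between lean genotypes 2123, against 3 and 4297. Equal totals gave 392 higher and 1753 lower between lean genotypes (1042 and 1081 otherwise) and 2554 and 628 for diet in KO mice (1704 and 1718). With that scaling, the middle value over every tested gene stood at -0.12 and 0.14 on the log2 scale in these 2 comparisons. For the difference between genotypes in the diet effect, 1 gene passed, against 926 with DESeq2, 2563 with weights and 7 with TMM scaling, none of them among the 10. Replicate numbers pair no mice here.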

Other observations

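Marker lists of other liver cells were tested for diet in KO mice, where 24.1% of all genes passed, and between lean genotypes, where 16.3% passed. Of 7 sinusoidal endothelial markers 4 were lower in obese KO mice and 1 was higher in lean KO than in lean WT mice, and of 7 lymphocyte markers tested for diet in KO mice 4 were lower. Of 3 lymphocyte markers tested between lean genotypes, 2 were higher in KO mice. None of 7 endothelial, 8 stellate, 5 cholangiocyte and 5 lymphocyte markers tested passed for diet in WT mice. Of stellate markers 1 of 8 was lower in obese KO mice and 1 of 8 lower in lean KO than in lean WT mice, and of 5 cholangiocyte markers 1 was lower in lean KO mice. Of 2 adipocyte markers tested, 1 was higher with diet in each genotype, while Adipoq, Plin1, Lep and Retn were not listed in the diet tables. With the number in the mouse name as a random block, the endothelial, stellate and cholangiocyte calls were not kept (adjusted p = 0.104 to 0.192). Of the 4 lymphocyte calls for diet in KO mice 1 was kept (highest adjusted p 0.206), and of the 2 between lean genotypes none (0.161 to 0.169). The adipocyte call was kept in WT mice (0.000193) but not in KO mice (0.1007). The 1 erythroid marker and the 2 pancreatic acinar markers tested did not pass for diet in either genotype.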
